A study of Mus with 6 samples.

Results

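The cluster of miR-143 and miR-145a is a pair of microRNA (miRNA) genes that are read as 1 transcript. Its 4 mature products, mmu-miR-143-3p, mmu-miR-143-5p, mmu-miR-145a-5p and mmu-miR-145a-3p, written below without the mouse prefix, were taken by name from the deposited tables. They are 4 of the 929 known mature miRNAs that all 6 tables list. Small RNA had been sequenced from adipocytes, the lipid-storing cells of fat, of wild-type C57BL/6 mice. There were 3 control libraries and 3 libraries of adipocytes under chronic intermittent hypoxia (CIH), in which oxygen drops again and again as it does in sleep apnoea. The labels give no age, no fat depot, no oxygen level and no duration. They also do not say whether each library is a separate animal or culture, and p-values here measure the spread between libraries, which may be technical.

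A miRNA precursor is a hairpin that is cut into a 5p and a 3p arm. As a rule 1 arm, the guide, is loaded into an Argonaute protein and represses target mRNAs, and the other, the passenger, is mostly degraded. The cluster is best known from smooth muscle, where serum response factor and myocardin drive it, TGF-beta signalling raises it and its products favour the contractile state of the cell. In fat, miR-143 has been described as rising during adipocyte differentiation. Separately, and not for fat in particular, an excess of miR-143 has been described as impairing insulin signalling through AKT. miR-145a is known as a repressor of KLF4 and of the insulin receptor substrate IRS1. The usual guides are miR-143-3p and miR-145a-5p.

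In the RefSeq table of GRCm38.p6, Mir145a lies on chromosome 18 from 61647825 to 61647894 and Mir143 from 61649196 to 61649258, with 1301 bases between them. Both lie within the span of Carmn (61645878 to 61665538), the long non-coding host RNA also called Mir143hg, and they are the only 2 miRNA genes of that table within 100000 bases of either. The level of the host RNA was not measured in these small RNA libraries.

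Total counts ran from 6291101 to 11264151 per library. Levels are given as CPM, counts divided by the total of the same library and scaled to a common total. The floor of 3 counts is worth 0.266 to 0.477 CPM and covers counting error only. The libraries numbered 3 stood apart in both groups: log2 CPM of libraries 1 and 2 of both groups correlated with one another at r = 0.975 to 0.990 and with the libraries numbered 3 at 0.917 to 0.933, across 471 miRNAs, which are not independent. The tables of the libraries numbered 3 also list another set of names. The tests of the members between CIH and control are therefore given with and without them. The members were counted in every library, with a lowest count of 481, and all 4 passed the filter on low counts.

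miR-143-3p, the guide of miR-143, was among the 5 most abundant miRNAs of every library. In order of library number, the controls held 113850, 133754 and 57127 CPM, and the CIH libraries held 108206, 90732 and 55147 CPM. It ranked second in the 4 libraries numbered 1 and 2, at rank 4 in control library 3 and at rank 5 in CIH library 3. The library number separated these CPM values more than the group did, since both libraries numbered 3 lay below the other 4, and the ranges of control and CIH overlapped. CPM also depends on the rest of a library. miR-148a-3p held 493520 CPM in control library 3, 249065 CPM in CIH library 3 and 28100 to 55275 CPM in the other 4. After TMM scaling, which evens out general shifts between libraries, miR-143-3p stood at 89882 CPM in control library 3. It stood at 49695 CPM in CIH library 3 and at 94313 to 121462 CPM in the libraries numbered 1 and 2.

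miR-145a-5p, the guide of miR-145a, was present at far lower levels. In the same order, the controls held 587, 687 and 440 CPM, and the CIH libraries held 504, 490 and 1213 CPM. CIH library 3 was the highest and control library 3 the lowest of the 6, so the libraries numbered 3 held both extremes. Its rank by abundance lay between 54 and 74.

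The passenger of miR-145a, miR-145a-3p, was rarer than its guide in every library. The controls held 395, 302 and 78.5 CPM of it, and the CIH libraries 311, 266 and 339 CPM. Control library 3 was below the other 5 libraries, which overlapped between the groups.

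miR-143-5p, the passenger of miR-143, was the rarest of the 4 in every library. The controls held 111, 85.6 and 58.2 CPM of it, and the CIH libraries 81.1, 80.4 and 142 CPM. As for miR-145a-5p, the highest value was that of CIH library 3 and the lowest that of control library 3.

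**Figure D1:**
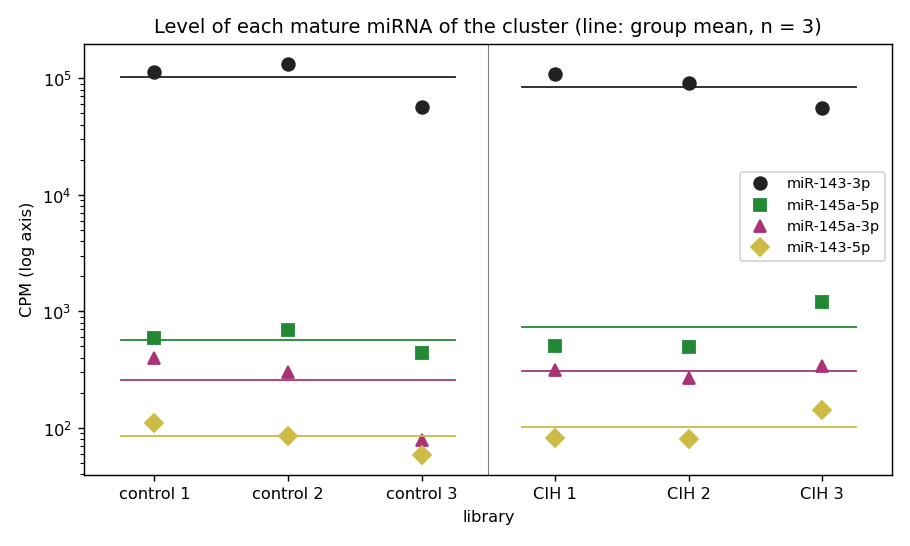
CPM (log axis) of the 4 mature miRNAs in each library, with a line at the mean of each group (n = 3). miR-143-3p lies between 55147 and 133754 CPM, and the other 3 lie between 58.2 and 1213 CPM.

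The order of the 4 levels was the same in all 6 libraries: miR-143-3p, miR-145a-5p, miR-145a-3p and miR-143-5p. The mean over all libraries was 93136 ± 31786 CPM for miR-143-3p, 654 ± 288 CPM for miR-145a-5p, 282 ± 109 CPM for miR-145a-3p and 93.1 ± 29.4 CPM for miR-143-5p (SD, n = 6). The mean ± SD ranges of miR-145a-5p and miR-145a-3p overlapped, but within each library the first exceeded the second. In control library 3 the passengers miR-145a-3p and miR-143-5p, at 78.5 and 58.2 CPM, were closest. These are levels of different sequences, and no spike-in or correction for unequal capture of sequences by library preparation is given in the sources used here.

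Together the 4 members took 10.2% ± 4.0 of a control library and 8.58% ± 2.66 of a CIH library (SD, n = 3 per group). The difference of -1.67 percentage points (two-sided exact permutation test, p = 0.5) was -2.46 within the libraries numbered 1 and 2. The lowest share was 5.68% in CIH library 3 (Wilson 95% interval 5.67% to 5.70%) and the highest 13.5% in control library 2 (13.46% to 13.50%). miR-143-3p alone made 97.0% to 99.2% of the members' reads in the 6 libraries. Both arms of miR-145a made 0.734% of them in control library 2 (Wilson 95% interval 0.719% to 0.749%), the lowest value, and 2.73% in CIH library 3 (2.69% to 2.77%), the highest. The other 4 libraries lay between 0.747% and 0.899%, so CIH library 3 stood apart in how the members' reads were divided.

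Although both miRNAs come from 1 transcript, miR-143-3p outnumbered miR-145a-5p by a large factor in every library. The ratio of their counts was 194, 195 and 130 in the controls, by number, and 215, 185 and 45.5 under CIH. The 4 libraries numbered 1 and 2 lay within a narrow range, and the libraries numbered 3 were lower, CIH library 3 by far the most. On the log2 scale the mean was 7.41 ± 0.34 in control and 6.93 ± 1.24 in CIH (SD, n = 3 each), a difference of -0.48 (p = 0.8 by a two-sided exact permutation test, and 0.8 when adjusted over 4 measures). With 3 libraries against 3 this test cannot give less than 0.1. Within the libraries numbered 1 and 2 the difference was 0.037.

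How the lower ratio in CIH library 3 divides between the guides depended on the scaling. From control to CIH library 3, miR-145a-5p differed 2.76-fold in CPM and miR-143-3p 0.965-fold. After TMM scaling, which evens out general shifts between libraries, the log2 differences were 0.66 for miR-145a-5p and -0.85 for miR-143-3p. The same library was the highest of the 6 for the stromal markers: miR-199a-3p, miR-199a-5p, miR-214-3p and miR-214-5p, which mark fibroblasts and other stromal cells, summed to 66822 CPM there and to 6158 to 16036 CPM in the other 5 libraries. No marker miRNA of smooth muscle other than the members was in the lists used. The part of stromal cells in the values of CIH library 3 was not tested. In libraries of bulk cells, fewer cells of a type and less RNA per cell cannot be told apart.

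**Figure D2:**
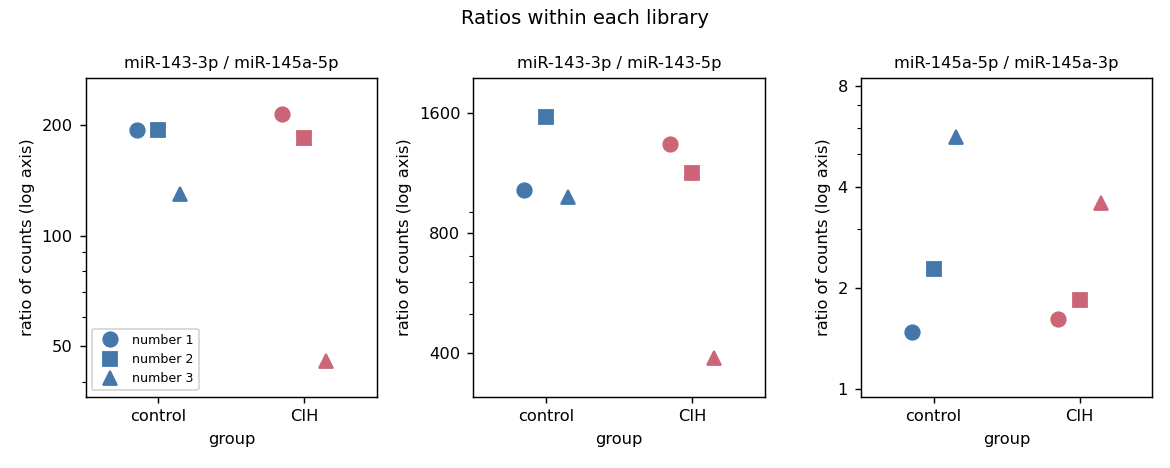
Ratios of counts within each library (log axes) for control and CIH, with the symbol giving the library number. miR-143-3p over miR-145a-5p lies at 185 to 215 in the libraries numbered 1 and 2, at 130 in control library 3 and at 45.5 in CIH library 3.

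The arms were used far more unequally in miR-143 than in miR-145a. For miR-143 the 3p arm outnumbered the 5p arm by 1026, 1563 and 981 in the controls, by number, and by 1334, 1129 and 387 under CIH. The 5p arm thus held 0.0640% of the miR-143 reads in control library 2 (Wilson 95% interval 0.0598% to 0.0684%), the lowest share, and 0.258% in CIH library 3 (0.245% to 0.271%), the highest. For miR-145a the 5p arm outnumbered the 3p arm by 1.48, 2.27 and 5.61 in the controls and by 1.62, 1.84 and 3.58 under CIH. The passenger miR-145a-3p held between 15.1% of the miR-145a reads in control library 3 (Wilson 95% interval 14.1% to 16.2%) and 40.3% in control library 1 (39.0% to 41.5%). The libraries numbered 3 had the strongest preference for the 5p arm of miR-145a in both groups.

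Set beside the 83 precursors with both arms at a mean of at least 5 CPM, these preferences lay far apart. By the size of the mean log2 ratio miR-143 ranked at 5 of 83, behind miR-21a, miR-146b, let-7i and miR-182, which all favour the 5p arm. In favour of the 3p arm it ranked at 1. Its mean log2 ratio of 3p to 5p was 9.94, against a median size of 3.34 over the 83. Precursors with either arm under 5 CPM, or without both arms listed under the same precursor name, were left out. More unequal precursors may be among them, so the ranks and the median hold for the 83 alone. miR-145a, at -1.28, ranked at 59 and was 1 of 31 precursors whose arms lay within 4-fold of each other by this mean. In control library 3 alone its ratio of 5p to 3p was 5.61. The spread over the 6 libraries was ordinary for both: the SD of the log2 ratio was 0.71 for miR-143 and 0.75 for miR-145a, and the median over the 83 was 0.81.

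**Figure D3:**
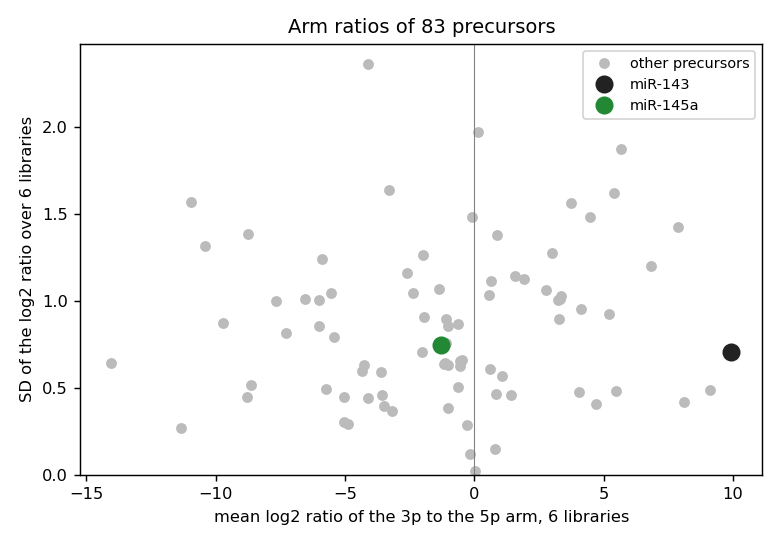
Mean log2 ratio of the 3p to the 5p arm over 6 libraries (horizontal) against its SD over the libraries (vertical) for 83 precursors, 1 point each. miR-143 lies at the right end at 9.94, and miR-145a lies near the middle at -1.28.

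Neither arm ratio differed between CIH and control beyond the spread of the libraries. In the limma fit over the 83 precursors the log2 ratio of the 3p to the 5p arm of miR-143 was lower in CIH by a difference of -0.48 (SE 0.65, 95% interval -1.97 to 1.02, limma adjusted p = 0.935). For miR-145a the difference was 0.27 (SE 0.72, 95% interval -1.40 to 1.95, limma adjusted p = 0.935). Of the 83, 0 passed an adjusted p of 0.05 (0%) and 2 had an unadjusted p under 0.05. The exact permutation test over libraries gave p = 0.6 for miR-143 and p = 0.7 for miR-145a (two-sided, adjusted p = 0.8 for both). In the 4 libraries numbered 1 and 2 the limma differences were -0.05 (SE 0.31, limma adjusted p = 0.953) for miR-143 and 0.09 (SE 0.39, limma adjusted p = 0.941) for miR-145a. The intervals over 6 libraries leave room for a change of either arm ratio by more than 2-fold.

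Other miRNA clusters served as a scale for the ratio between the guides. Among 15 pairs of guides that come from a common transcript, miR-143-3p and miR-145a-5p were the most unequal, with a geometric mean ratio of 144. The next was miR-27b-3p over miR-23b-3p at 23.6, and the median of the other 14 pairs was 6.49. Over all 6 libraries the SD of the log2 ratio was 0.85, which ranked at 3 of 15, behind miR-93-5p with miR-25-3p (1.58) and miR-30a-5p with miR-30c-5p (1.12). Within the libraries numbered 1 and 2 the same SD was 0.09, the smallest of the 15, where the median of the other 14 was 0.37. The 15 pairs are a chosen list and not all clusters. Some hold rare guides, such as miR-212-3p (mean 0.785 CPM) and miR-497a-5p (5.16 CPM), whose ratios carry more counting error. Some of these guides, such as miR-24-3p, miR-92a-3p and miR-199a-3p, also come from a second locus, which adds to their counts.

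**Figure D4:**
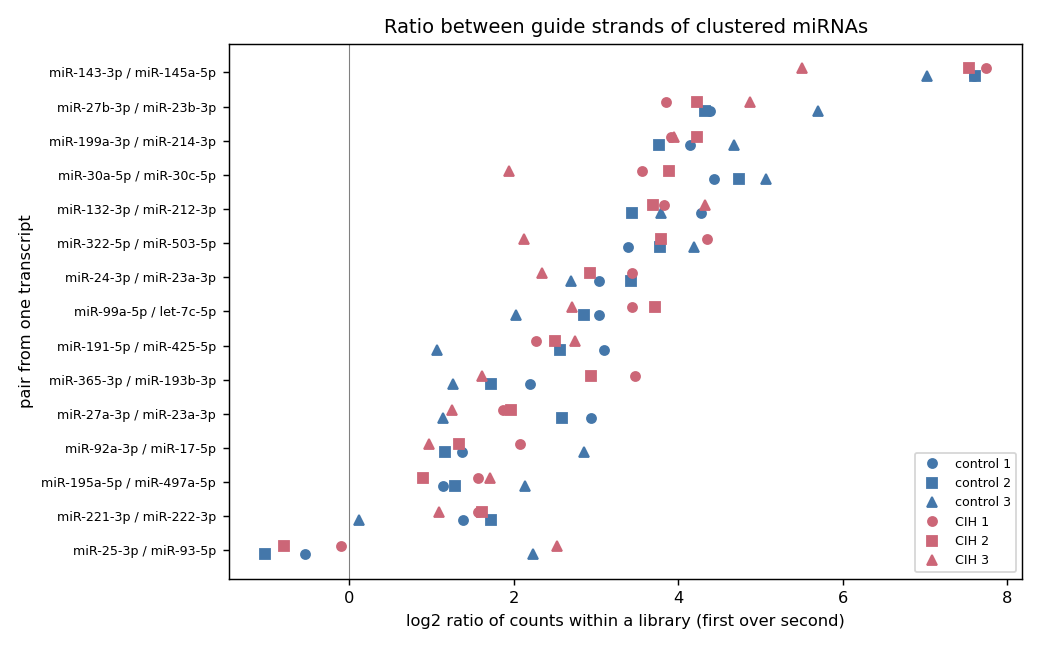
Log2 ratio of counts between guides from a common transcript (horizontal), with the more abundant guide first, for 15 pairs in 6 libraries. The 4 libraries numbered 1 and 2 almost coincide for miR-143-3p over miR-145a-5p, at the right end, and CIH library 3 lies to their left.

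None of the 4 members passed the test between CIH and control, and in these 6 libraries neither did any other miRNA. By edgeR's quasi-likelihood test 0 of 456 were called (0%), and 23 had an unadjusted p under 0.05. DESeq2 called 0 as well, with 37 at an unadjusted p under 0.05, and limma-voom 0, with 21. miR-143-3p averaged 101577 ± 39761 CPM over the controls and 84695 ± 27040 CPM under CIH (SD, n = 3 per group), with a log2 difference of -0.35 (SE 0.51, edgeR adjusted p = 0.970). Its 95% interval ran from 0.346-fold to 1.79-fold of the control level. miR-145a-5p averaged 571 ± 124 and 736 ± 414 CPM in the same order, with a log2 difference of 0.19 (SE 0.48, edgeR adjusted p = 0.988) and an interval from 0.526-fold to 2.46-fold.

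The passengers gave the same picture. The log2 difference of miR-145a-3p was 0.24 (SE 0.47), from a mean of 259 ± 163 CPM in the controls and 305 ± 36.5 CPM under CIH. That of miR-143-5p was 0.12 (SE 0.43), from 84.9 ± 26.4 and 101 ± 35.7 CPM. Both had an edgeR adjusted p of 0.988. The CPM ranges of the groups overlapped for all 4 members, while they did not overlap for 51 of the 456 miRNAs (11.2%). The standard errors of the members were on the small side, since 6.36% to 24.6% of the tested miRNAs had a smaller one.

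Compared by library number in CPM, all 4 members had lower values in CIH in the pairs numbered 1 and 2, and 1 of 4 in the pair numbered 3. In pair 1 the log2 difference in CPM was -0.07 for miR-143-3p, -0.22 for miR-145a-5p, -0.35 for miR-145a-3p and -0.45 for miR-143-5p. In pair 2 these were -0.56, -0.49, -0.18 and -0.09. The median of all 456 miRNAs was -0.08 in pair 1 and -0.16 in pair 2. In pair 3 they were -0.05, 1.46, 2.11 and 1.29, where the median of all 456 miRNAs was 0.74. After TMM scaling, 2 signs turned in pair 2, where miR-143-5p stood at 0.14 and miR-145a-3p at 0.05, and none in pair 1. The TMM values in pair 3 were -0.85 for miR-143-3p, 0.66 for miR-145a-5p, 1.31 for miR-145a-3p and 0.49 for miR-143-5p. Under both scalings miR-143-3p was thus lower in the CIH library of pair 3 and the other 3 members higher. The pair has 1 library per group and no spread of its own.

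Within the 4 libraries numbered 1 and 2, where 43 of 459 miRNAs were called (9.37%), 0 of the 4 members were. The number called rested on single libraries. Leaving out control library 1 gave 14, and leaving out control library 2 gave 9. It became 23 with CIH library 1 left out and 97 with CIH library 2 left out, and 0 members were called in these 4 fits, where a lone library is assumed to vary as the opposite group does. The log2 differences there were -0.18 (SE 0.21) for miR-143-3p, -0.21 (SE 0.21) for miR-145a-5p, -0.13 (SE 0.22) for miR-145a-3p and -0.12 (SE 0.26) for miR-143-5p, and the edgeR adjusted p-values lay between 0.615 and 0.829. Their 95% intervals ran from -0.61 to 0.24, -0.65 to 0.22, -0.57 to 0.32 and -0.66 to 0.41, all within 1 of no change on the log2 scale. That limit did not hold when 1 library was left out, since the lower bound was -1.06 for miR-145a-5p without control library 1 and -1.10 for miR-143-5p without control library 2. Without control library 2 the signs of both guides turned, to 0.07 for miR-143-3p and 0.04 for miR-145a-5p. Both CIH libraries lay below both controls in CPM for 3 members, miR-145a-3p being the exception. The same held for 147 of the 459 miRNAs (32%).

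**Figure D5:**
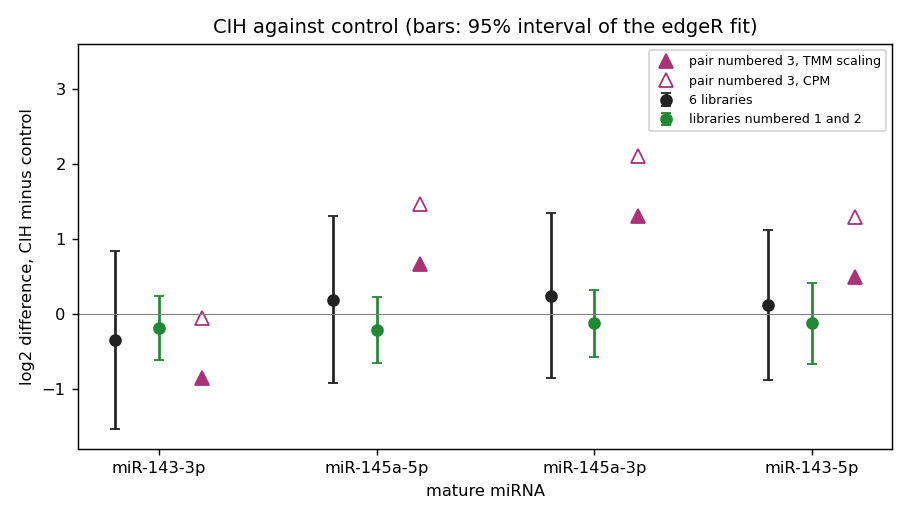
Log2 difference (CIH minus control) of each member in the edgeR fit of 6 libraries and in that of the libraries numbered 1 and 2, with 95% intervals, and in the pair numbered 3 after TMM scaling (filled) and in CPM (open). All intervals include 0, and in the pair numbered 3 miR-143-3p is below 0 and the other 3 members are above it.

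The library number itself was tested in a fit that also held the group. The libraries numbered 3 differed from the rest in 114 of 456 miRNAs (25%), and 0 of the 4 members were among them. miR-143-3p had a log2 difference of -0.59 (SE 0.28, edgeR adjusted p = 0.168) and miR-145a-5p one of 0.77 (SE 0.33, edgeR adjusted p = 0.132). With total counts alone as the scaling these were -0.98 (edgeR adjusted p = 0.0618) and 0.48 (edgeR adjusted p = 0.546), with 60 of 456 called (13.2%). The interaction of group and set, which asks whether CIH and control differed unlike in the libraries numbered 3, was called for miR-145a-3p alone of the members and for 138 of 456 miRNAs (30.3%). With total counts as the scaling it was called for all members but miR-143-3p and for 158 of 456 (34.6%). This fit has only the libraries numbered 1 and 2 to estimate its spread from.

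The miRNAs whose levels ran most like each guide over the 6 libraries were different ones, among 256 with a mean of at least 10 CPM. For miR-143-3p they were miR-871-3p, miR-365-3p, miR-107-3p, miR-425-3p and miR-878-5p, with Pearson r of log2 CPM from 0.960 to 0.983 over 6 libraries. All 5 were lowest in the libraries numbered 3, as miR-143-3p was. For miR-145a-5p they were miR-503-3p, miR-351-5p, miR-152-3p, miR-181a-1-3p and miR-100-5p, with r from 0.953 to 0.984. Each of these was highest in CIH library 3, for example miR-152-3p at 6168 CPM there and 1825 to 3244 CPM elsewhere. miR-145a-5p itself ranked at 189 of 256 in likeness to miR-143-3p (r = -0.27), and miR-143-5p ranked at 28 in likeness to miR-145a-5p (r = 0.86). The libraries numbered 3 hold the extreme values of both guides, and with only 6 libraries these values describe the libraries and give no test. Likeness was taken on CPM without TMM scaling, so general shifts between libraries enter it.

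Of miRNAs known for the contractile state of smooth muscle, which the cluster favours, 6 of 8 on the list were tested and 0 rose or fell in the 6 libraries or within those numbered 1 and 2. Their median log2 difference in the 6 libraries was -0.10, against 0.04 over all miRNAs. By level the list was led by miR-21a-5p, a TGF-beta responsive miRNA (log2 difference 0.55, SE 0.72), miR-100-5p (0.06, SE 0.43), miR-10a-5p (-0.21, SE 0.84) and miR-29b-3p, a repressor of collagen genes (0.02, SE 0.43). The rarer ones tested were miR-1a-3p, with the largest difference of the list (-1.63, SE 0.95), and miR-204-5p (-0.26, SE 1.47). They averaged 33.4 and 2.17 CPM. Of 7 miRNAs known for the synthetic, proliferating state, 6 were tested. In the 6 libraries 0 of them rose or fell, with a median of 0.95. Within the libraries numbered 1 and 2, 2 rose and 0 fell, with a median of 0.71 against -0.03 over all miRNAs, of which 19 rose (4.14%) and 24 fell (5.23%). These were miR-221-3p (1.18, SE 0.21, edgeR adjusted p = 0.000216) and miR-222-3p (1.14, SE 0.22, edgeR adjusted p = 0.000723). The most abundant ones did not pass there: miR-26a-5p was at -0.16 (SE 0.20) and miR-24-3p, with 16233 CPM in CIH library 1 and 8880 CPM in CIH library 2, at 0.53 (SE 0.22). miR-146a-5p was at 0.88 (SE 0.31, edgeR adjusted p = 0.0705). miR-31-5p, like miR-26a-5p, was negative there, at -0.70 (SE 0.27, edgeR adjusted p = 0.0979). Both lists were chosen with earlier results of these data known, so their counts and medians are no independent test.

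Of 13 miRNAs linked to adipocyte differentiation, all were tested and 0 rose or fell in the 6 libraries, with a median of -0.35. Within the libraries numbered 1 and 2, 0 rose and 2 fell, with a median of -0.28, where 5.23% of all miRNAs fell. These were miR-210-3p (-1.75, SE 0.24) and miR-148a-3p (-0.66, SE 0.21), named after their values were seen. Of 11 miRNAs linked to TGF-beta or serum response factor, 10 were tested and 0 rose or fell in either fit, with medians of 0.24 and -0.14.

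Of the summed cell type markers, the adipocyte-associated sum did not overlap between the groups and was lower in CIH, and the other sums overlapped between the groups over the 6 libraries. Its 5 miRNAs (miR-193b-3p, miR-365-3p, miR-378a-3p, miR-103-3p and miR-107-3p) were all found and summed to 46535 to 56157 CPM in control and 12361 to 38186 CPM in CIH. Taken singly, only 2 of the 5, miR-193b-3p and miR-378a-3p, did not overlap, beside 51 of all 456 tested miRNAs (11.2%). miR-378a-3p, the most abundant of the 5 by mean, lay at 38660 to 43593 CPM in control and 5624 to 29025 CPM in CIH. None of the 5 passed in the 6 libraries, and within those numbered 1 and 2 miR-193b-3p fell (-1.32, SE 0.33, edgeR adjusted p = 0.00714). In these 4 libraries the epithelial sum was also lower in CIH, at 170 and 126 CPM against 409 and 334 CPM in control, and 2 of its 5 tested members fell, miR-205-5p (-1.44, SE 0.24) and miR-203-3p (-1.24, SE 0.31). The stromal sum was lower there as well, at 11039 and 10884 CPM against 16036 and 13229 CPM, with 0 of 4 members called. The sums were 6158 to 16036 CPM in control and 10884 to 66822 CPM in CIH for 4 of 4 stromal markers, 33.8 to 137 and 73.1 to 104 CPM for 2 of 2 endothelial ones, and 15.6 to 113 and 13.9 to 41.2 CPM for 4 of 6 striated muscle ones. They were 8.35 to 129 and 3.28 to 106 CPM for 3 of 3 erythroid markers and 76.3 to 409 and 18.6 to 170 CPM for 7 of 7 epithelial ones. Leukocyte markers (4 of 4) were near 0, at 0.363 to 4.29 and 0.266 to 3.27 CPM, and the hepatocyte marker miR-122-5p lay at 2.16 to 4.12 and 2.09 to 5.59 CPM. The part of these cell types in the members' levels was not tested.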

How the data were processed

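Small RNA reads of 6 libraries of mouse adipocytes had been counted by the authors. The deposited tables hold raw counts of reads per mature miRNA. In 3 of them the header reads FPKM, but the values are whole numbers whose totals differ between libraries, and they were used as counts. Named in the submitters' processing notes, without a role, are GRCm38, DESeq 1.8.3 and featureCounts 1.5.0-p3. The sources used here do not give the trimming, the aligner, the miRBase release or the handling of reads that fit more than 1 miRNA.

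The 929 known names in all 6 tables hold at least 99.97% of each library. CPM used the whole total of each table. Differences were fitted over all names with edgeR 4.0.16 (quasi-likelihood test, robust, TMM, filterByExpr, group only, Benjamini-Hochberg at 0.05) in R 4.3.3, where 456 names passed the filter. DESeq2 1.42.0 and limma-voom (limma 3.58.1) were alternatives. Log2 ratios within libraries had 0.5 counts added. They were compared with two-sided exact permutation tests (scipy 1.17.1, Python 3.11.15) and, for 83 precursors, with limma. The fits were also run on simulated data with known changes, in which single miRNAs had no shift in the libraries numbered 3. The outcome is not given here and does not vouch for the fits of these 6 libraries. Other alternatives were other scalings, no filter, the library number as a block, the libraries numbered 1 and 2 alone, other pseudocounts and leaving out each library. Chosen after the data were seen were the set of libraries as a term and its interaction with group. Library numbers, which the titles share between the groups, were taken as pairs. Deviations of same-numbered libraries from their group means correlated at 0.31, 0.35 and 0.40. Control library 1 also correlated at 0.40 with CIH library 2, and control library 2 at 0.20 with CIH library 1. Since the libraries numbered 3 stand apart in both groups, these values cannot show whether 1 belongs with 1 and 2 with 2. Libraries of 1 group differed by more than counting noise (the chi-square statistic divided by its degrees of freedom was 164 or higher). No molecular identifiers are mentioned for the reads, and intervals and floors cover counting error only. Named were the members, the 5 miRNAs most like each guide, fixed pairs of guides, and fixed lists. The members and lists were chosen with earlier results of these data known.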

Additional observations from a re-analysis of the deposited data

Results flagged for a closer look

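For miR-145a-3p the interaction of group and library set passed the threshold, at 1.43 on the log2 scale (SE 0.38, edgeR adjusted p = 0.00476), in a fit that cannot show that the effect of CIH differed. miR-145a-3p stood at 78.5 and 339 CPM in control and CIH library 3 and at 302 to 395 and 266 to 311 CPM in the control and CIH libraries numbered 1 and 2. The interaction was called for 138 of 456 miRNAs (30.3%), so 1 of 4 members is near the background. The set numbered 3 has 1 library per group and no spread of its own, so the fit counts any difference between these 2 libraries. With total counts as the scaling, the interaction was 2.38 for miR-145a-3p, 1.82 for miR-145a-5p, 1.57 for miR-143-5p and 0.26 for miR-143-3p. The first 3 were called, as were 158 of 456 miRNAs (34.6%), and the median of all miRNAs moved from 0.06 to 0.998.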

How the results depend on the processing

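Of 124 recomputed values, 111 were labelled as unchanged. For the member differences this means the same direction and side of the threshold. For the arm ratios, the ratio of the guides and the members' share it means the direction alone, since their exact tests cannot give a p under 0.1. Counts of calls have no direction and were labelled unchanged where they stayed at 0. miR-143-3p kept a negative difference in the alternatives to the comparison of 6 libraries, from -0.50 to -0.10 when 1 of the 6 was left out. Within the libraries numbered 1 and 2 alone the sign turned for miR-143-5p (-0.12), miR-145a-5p (-0.21), miR-145a-3p (-0.13) and the log2 ratio of miR-143-3p to miR-145a-5p (0.037). Without CIH library 3 it turned for miR-143-5p (-0.16), miR-145a-5p (-0.33), the miR-143 arm ratio (0.078) and the ratio of the guides (0.23). Without control library 3 it turned for miR-145a-3p (-0.050) and the arm ratio of miR-145a, 5p over 3p (0.26). Leaving out 1 library gave ranges of -0.16 to 0.38 for miR-143-5p, -0.33 to 0.51 for miR-145a-5p, -0.05 to 0.57 for miR-145a-3p, -0.81 to 0.08 and -0.70 to 0.26 for the arm ratios of miR-143 and miR-145a, -0.89 to 0.23 for the ratio of the guides and -3.90 to -0.05 percentage points for the members' share. None of the member differences passed the edgeR test, and neither arm ratio passed in limma. The exact tests of the ratios and of the share could not pass at 0.05 with so few libraries. The count of called miRNAs was 43 for the libraries numbered 1 and 2 alone and 0 in the other alternatives to the comparison of 6 libraries. Within the libraries numbered 1 and 2 it was 34 with total counts as the scaling, 48 with the replicate block and 9 to 97 when 1 of the 4 was left out, with a lone library assumed to vary as the opposite group does. The count of precursors with a called arm ratio was 5 there and 1 with the replicate block, neither miR-143 nor miR-145a among them, and 0 in the others. With the replicate block the log2 differences were -0.40 for miR-143-3p, 0.08 for miR-145a-5p, 0.35 for miR-145a-3p and 0.08 for miR-143-5p, and pairing changed no call of a member. Scaling by total counts moved the median of all miRNAs from 0.04 to 0.15 and RLE scaling to -0.06. Depth did not limit the members, whose counts were 481 or more.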

Other observations

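miR-145b, whose gene lies on chromosome 18 from 69022199 to 69022273 and so apart from the cluster, is listed in the tables of the libraries numbered 1 and 2. It had counts of 1 and 2 in control libraries 1 and 2 and of 1 and 2 in CIH libraries 1 and 2, below the floor of 3 counts.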
